A study of Mus musculus with 2 samples.

Results

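miR-21 is made from the 3′ end of the gene Vmp1, and the 9 genes described here are that host gene and 8 genes long known as miR-21 targets: Pdcd4, Spry1, Reck, Tpm1, Btg2, Rhob, Peli1 and Jag1. They were chosen by symbol from the 27998 genes of the shared gene list, and each symbol stood on 1 row. CD45+ leukocytes came from Lewis lung carcinoma (LLC) tumors, a C57BL/6 mouse lung cancer line, grown under the skin of C57BL/6 mice that were 8 weeks old at implantation and 10 weeks old at collection on day 14. Control mice were miR-21 fl/fl, with loxP sites around miR-21 and no Cre, and the others were LysMCre;miR-21 fl/fl, in which Cre is made mainly in macrophages and granulocytes, so that lymphocytes are not expected to lose the floxed gene. Cells of 3 mice were pooled per genotype into 1 droplet library (10x Genomics 3′ chemistry, version 2), so each group has 1 library and no replicate, and no test between the genotypes could be made.

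By their titles the libraries are wt and cko, whereas the source field gives the knockout genotype to wt, and the protocol for growth describes a sort for macrophages in place of all CD45+ cells. Every direction below rests on the titles, and "labelled wt" and "labelled cko" mean the library with that title. Lyz2, the lysozyme gene that carries Cre in this line, was lower in the library labelled cko in all 12 cell classes, by log2 ratios of -0.66 to -1.75. In classical monocytes its level was 24934 labelled wt against 13174 labelled cko, in CPM, which is the UMIs of a gene in a class scaled to 1000000 UMIs of that class. The libraries held 2449 and 2718 cells with 24492486 and 27163485 UMIs, 5 barcodes occurred in both, and 2397 and 2646 cells remained after filtering.

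A microRNA is loaded into an Argonaute protein and pairs through its seed, bases 2 to 8, with short matches in the 3′ untranslated region (UTR) of messenger RNAs. Such pairing shortens the life of the messenger RNA or slows its translation, so a target can change in protein without a change in RNA. miR-21 is known as a microRNA of activated macrophages and of many tumors, and its classical targets act as brakes on growth signalling, translation, matrix breakdown and cell movement.

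The mature microRNA is shown first because its seed defines the matches searched in the members. Capitals mark the seed (RefSeq, GRCm38.p6, chr11:86584120-86584141, minus strand).
mmu-miR-21a-5p: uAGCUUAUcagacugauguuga

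All 3 kinds of canonical match were searched on the transcript strand of the longest annotated 3′ UTR of each gene (GENCODE M21, GRCm38, the build that the submitters call mm10). The 8mer is ATAAGCTA, the 7mer-m8 is its first 7 letters, ATAAGCT, and the 7mer-A1 its last 7 letters, TAAGCTA. An 8mer was not counted again as a 7mer. The 7 members with a match are shown with the 28 bases that end at it, with the match in capitals, since pairing of the seed is the basis on which genes are called miR-21 targets.
Pdcd4 (8mer, chr19:53929412-53929439, plus strand): accgaagtgtgggtgttctgATAAGCTA
Spry1 (8mer, chr3:37643853-37643880, plus strand): gtaaccatgtaagtgcttaaATAAGCTA
Reck (8mer, chr4:43944387-43944414, plus strand): tgaatgttttacagtttgaaATAAGCTA
Peli1 (8mer, chr11:21148535-21148562, plus strand): caggactgcattgtaagtttATAAGCTA
Jag1 (8mer, chr2:137081738-137081765, minus strand): tgcatttagggagtattctcATAAGCTA
Btg2 (7mer-A1, chr1:134075452-134075479, minus strand): taagaaatagtggtaagtttgTAAGCTA
Rhob (7mer-m8, chr12:8497719-8497746, minus strand): tgatgtttacataagagttctATAAGCT

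Of the 8 targets 5 held the 8mer, which 2.09% of the 3′ UTRs of 20987 genes held. A 7mer-m8 was in 5.32%, a 7mer-A1 in 4.80%, and any of the 3 in 11.05% of those genes. Long UTRs hold more matches, and among genes with UTRs of like length the share with an 8mer was 1.01% for Pdcd4, 0.961% for Spry1, 1.73% for Reck, 2.40% for Peli1 and 2.00% for Jag1. Among genes of like length, any match was held by 17.3% for Btg2 and 9.81% for Rhob. Tpm1, with a UTR of 1899 bases, and Vmp1 held none of these letters in the UTR searched, which says nothing about other transcripts or other kinds of pairing. The members were chosen as targets, so these matches describe them and are no test. A match is not a measured site of binding.

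The Mir21a hairpin (92 bases, chr11:86584067-86584158, minus strand) lay wholly inside the 3′ UTR of Vmp1, from base 1150 to base 1241 after the stop codon of a UTR of 1443 bases. Its start was 294 bases and its end 202 bases from the 3′ end of the transcript, which is the end that a 3′ library reads. The extent of the floxed segment is not given in the sources used here, so Vmp1 counts were not used as a check of the deletion, and miR-21 itself was not analysed here.

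**Figure D1:**
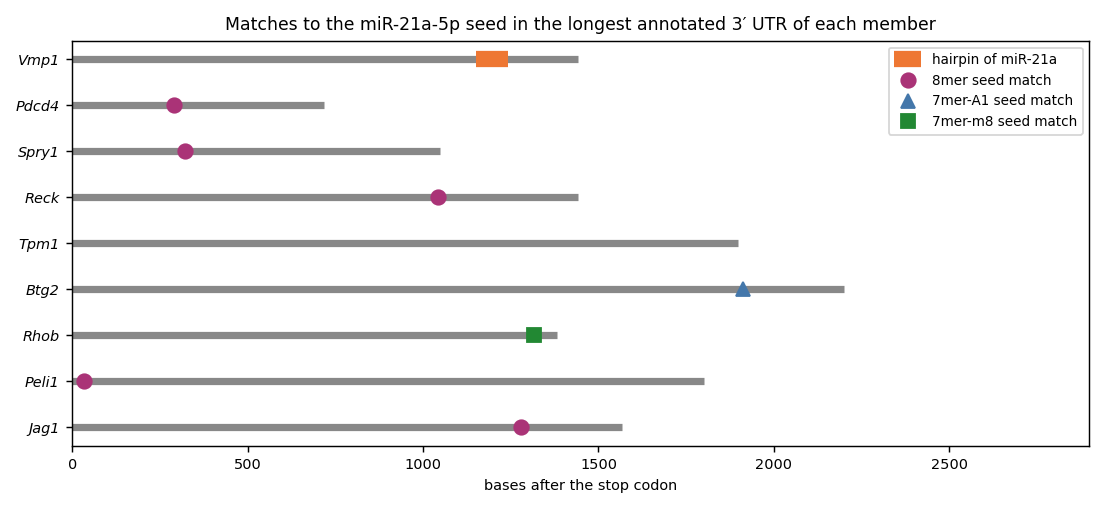
The longest annotated 3′ UTR of each of the 9 members is drawn to scale as a grey bar in bases after the stop codon, with the kind of seed match as a symbol and the Mir21a hairpin on Vmp1 in orange. The 8mers of Pdcd4, Spry1 and Peli1 lie 289, 322 and 32 bases after the stop codon, and the match of Rhob lies 1317 bases into a UTR of 1381 bases.

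Cells were assigned to classes by UMIs of marker genes. Monocytes and macrophages made up 1583 of the 2397 cells (66.04%) labelled wt and 1747 of the 2646 cells (66.02%) labelled cko. Within them, Ly6c2-positive cells with low C1q were classical monocytes (653 and 611 cells), Ly6c2-positive cells with C1q were transitional (292 and 244), and cells with C1q and low Ly6c2 were macrophages (519 and 757). The macrophages were divided into a Vcam1/Ccl8/Folr2 state (184 and 204 cells), a Cd300e/Clec4b1/Pparg state (142 and 311) and the others (193 and 242). T and NK cells numbered 181 and 205 (CD8 T cells 65 and 93, CD8-negative T cells 63 and 64, NK cells 53 and 48). Smaller classes were Csf3r-positive cells with high S100a8 and S100a9 (44 and 88 cells), which also held the monocyte genes Plac8 and Ly6c2, and dendritic cells with Xcr1 or Ccr7 genes (33 and 41) or with Cd209a, Flt3 or Mgl2 (41 and 43). The gate of CD8-negative T cells also held the NK gene Ncr1 beside Cd4 and Foxp3, so it is a mixed class. In all, 469 and 451 cells met no gate and enter no comparison. Barcodes under about 3000 UMIs had been removed before deposit (the shallowest cells had 3184 and 3187 UMIs), which removes small cells such as granulocytes first.

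Differences between the libraries are log2 ratios of CPM, cko over wt, with an exact 95% interval from the counts. All intervals cover counting error only, and not the spread between mice, pools or cells. A gene was called where its log2 ratio lay past 0.25 either way, its interval excluded 0 and it had at least 50 UMIs over both libraries in the class. In all monocytes and macrophages, 6 of the 9 members had enough UMIs. Of these, 1 (Rhob) was called higher and 0 lower when labelled cko, while 8.31% of 10289 genes were called higher and 3.16% lower. Classical monocytes gave the same member count, 1 higher (Rhob) and 0 lower of 6, beside 5.2% and 3.84% of 8186 genes. In Ly6c2-low C1q macrophages 2 were called higher (Rhob and Btg2) and 1 lower (Tpm1) of 6, beside 9.02% and 3.87% of 9361 genes. In T and NK cells 1 was called higher (Vmp1) and 1 lower (Pdcd4) of 5, beside 5.7% and 3.77% of 5787 genes. With 5 or 6 members tested, a difference of 1 or 2 calls from the background is no result about the members as a set, and the median log2 ratio of the members tested was 0.09 in all monocytes and macrophages, where that of all genes was 0.04.

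**Figure D2:**
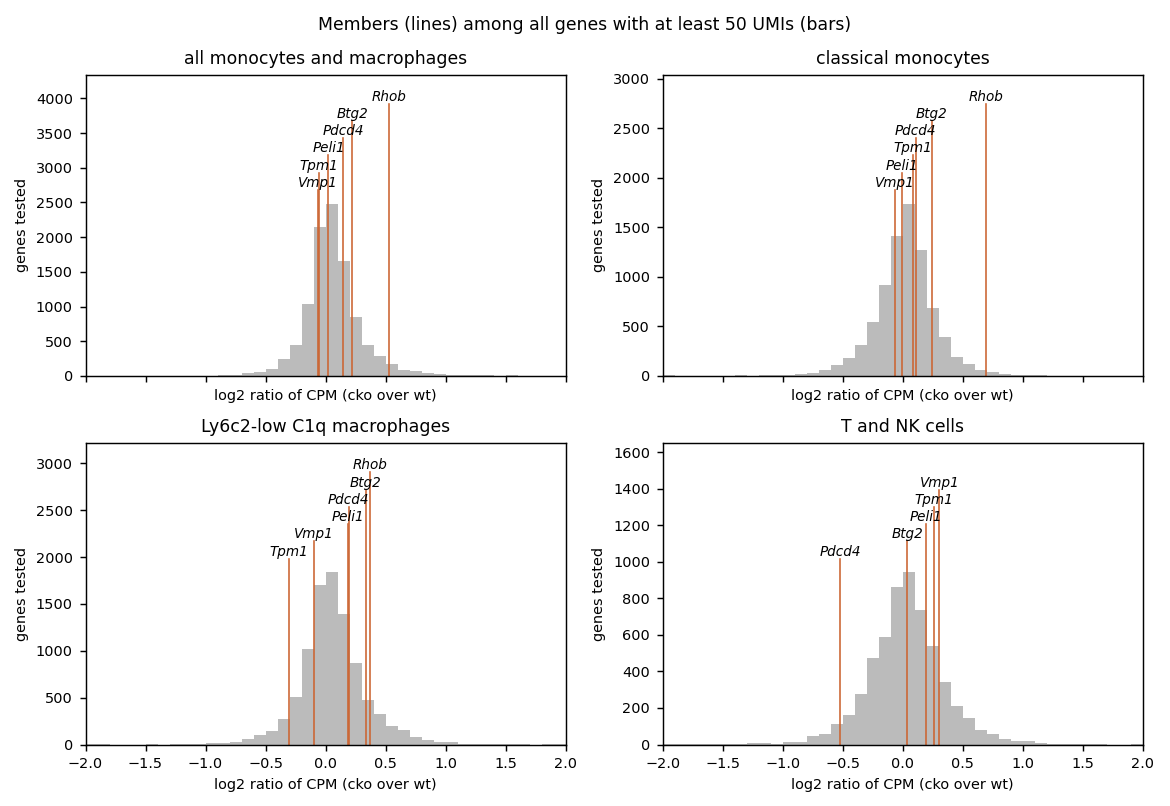
Grey bars count all genes tested by log2 ratio (cko over wt, in steps of 0.1, end steps holding all values beyond) in 4 classes, and orange lines mark the members with at least 50 UMIs. In all monocytes and macrophages 5 members lie between -0.07 and 0.22, and Rhob lies at 0.53.

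Vmp1, the host gene, codes for a membrane protein of the endoplasmic reticulum needed for autophagy. It was the most abundant member in monocytes and macrophages, at 242 CPM from 4135 UMIs labelled wt, against 232 CPM from 4317 UMIs labelled cko. The log2 ratio was -0.065 (-0.13 to -0.0032), or 0.956-fold, which did not reach the limit for a call. Its ratio was below 0 in every monocyte and macrophage class except nonclassical monocytes, at -0.06 in classical monocytes, -0.06 in transitional cells, -0.14 in the Vcam1/Ccl8/Folr2 state, -0.05 in the Cd300e/Clec4b1/Pparg state and -0.15 in the other macrophages. These values differ from each other by less than their counting error.

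In T and NK cells Vmp1 went the other way. The level was 218 CPM labelled wt against 269 CPM labelled cko, a log2 ratio of 0.31 (0.09 to 0.52). The difference from the ratio in monocytes and macrophages was 0.37 (0.15 to 0.59), an interval that again holds counting error alone. CD8 T cells had 296 and 364 CPM, a log2 ratio of 0.30 (0.03 to 0.57), and CD8-negative T cells 191 and 243 CPM. NK cells had 138 and 98.8 CPM, with a ratio of -0.49 (-1.10 to 0.11). The T cell classes and NK cells therefore lay on opposite sides of 0, and the ratio of NK cells was below that of CD8 T cells by 0.78 (0.15 to 1.42 in size). CD8 T cells, with the highest Vmp1, were 65 of 181 pooled cells labelled wt and 93 of 205 labelled cko. The mean of the log2 ratios of the 3 classes, weighted by their UMIs over both libraries, was 0.09, under the limit for a call. It is a mean of ratios that takes in the -0.49 of NK cells, and not a ratio of pooled levels. It therefore does not isolate the part of the CD8 T cell share. Free RNA from other cells, estimated from C1q genes, would account for 8.79 of 315 Vmp1 UMIs labelled wt and 11.3 of 437 labelled cko.

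Across the 12 classes Vmp1 was highest in CD8 T cells and lowest in Xcr1 or Ccr7 dendritic cells (59.4 and 75.1 CPM) in both libraries. Labelled wt, 3 of the 11 steps between neighbouring classes exceeded counting error: from the Vcam1/Ccl8/Folr2 state down to classical monocytes, from nonclassical monocytes down to NK cells, and from Cd209a/Mgl2 dendritic cells down to Xcr1 or Ccr7 dendritic cells. Labelled cko, it was 2 of 11, from CD8 T cells down to the Cd300e/Clec4b1/Pparg state and from the Csf3r-positive S100a8 cells down to NK cells.

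**Figure D3:**
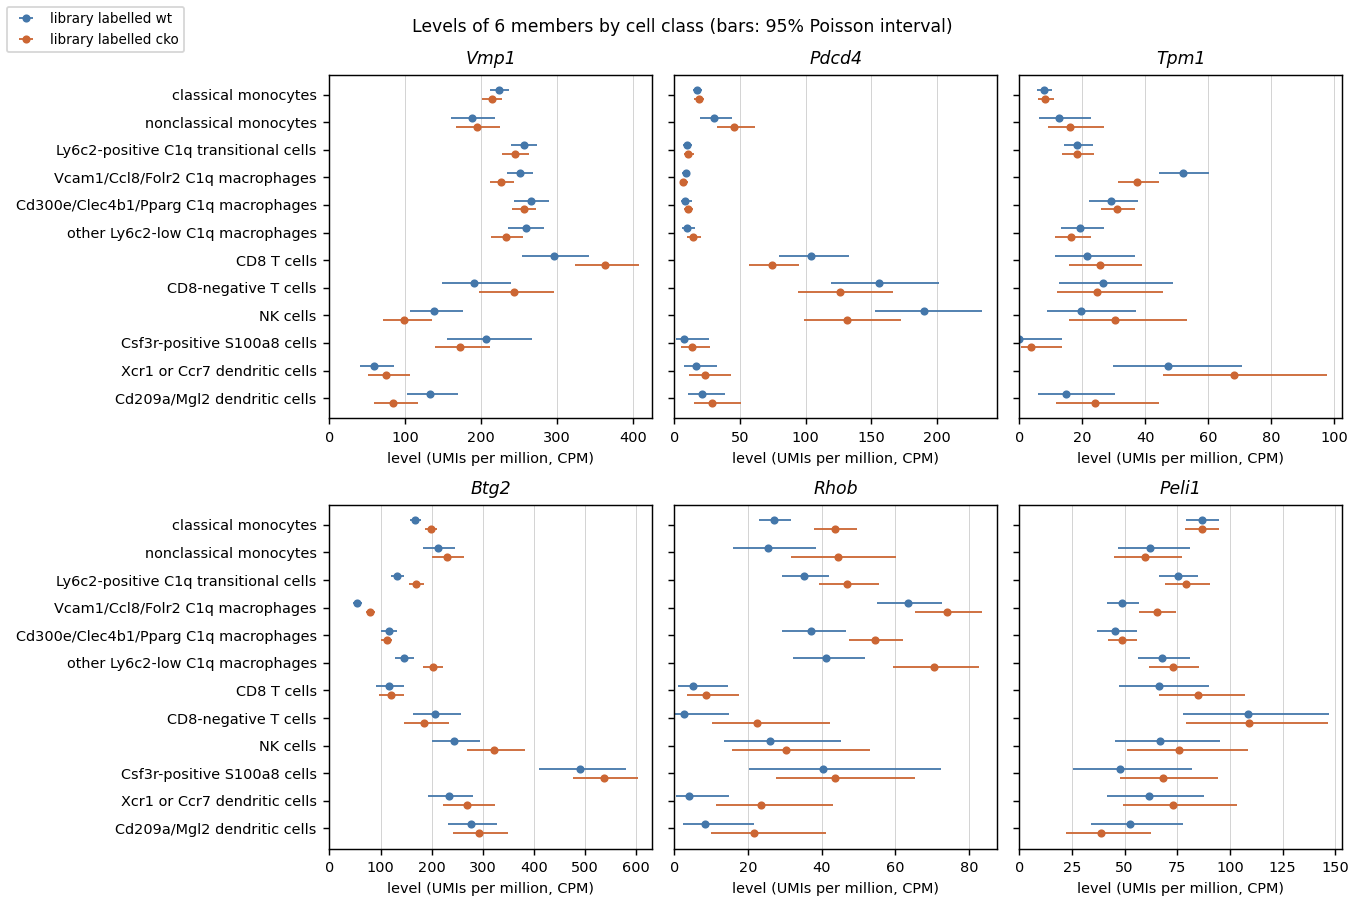
Level of the 6 members with enough UMIs in 12 classes, in CPM with 95% Poisson intervals, with blue for wt and orange for cko labels. Pdcd4 stands at 74.0 to 190 CPM in the lymphocyte classes and at 6.83 to 45.4 CPM in monocytes and macrophages, and Btg2 is highest in the Csf3r-positive S100a8 cells (489 and 537 CPM).

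Pdcd4 binds the helicase eIF4A and holds back translation, and is among the best known miR-21 targets. It was scarce in monocytes and macrophages, with 12.8 CPM from 218 UMIs labelled wt and 14.2 CPM from 264 UMIs labelled cko. The log2 ratio was 0.15 (-0.12 to 0.41), so that a rise of more than 0.41 or a fall of more than 0.12 lies outside the counting interval. Classical monocytes had 17.2 and 18.5 CPM and Ly6c2-low C1q macrophages 8.75 and 10.0 CPM. No monocyte or macrophage class differed between the libraries beyond counting error.

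Lymphocytes held far more of it. In T and NK cells the level was 145 CPM labelled wt and 101 CPM labelled cko, and the log2 ratio was -0.52 (-0.83 to -0.22), 0.696 of the wt level. Each lymphocyte class had its lower value under the cko label, with 104 and 74.0 CPM in CD8 T cells, 156 and 126 CPM in CD8-negative T cells, and 190 and 132 CPM in NK cells. Of those 3 classes the counting interval excluded 0 in NK cells alone (-0.53, -1.05 to -0.02), where the ratio was -0.0090 after every cell was thinned to 3000 UMIs. The lymphocyte ratio lay below the ratio of monocytes and macrophages by 0.67 (0.28 to 1.06 in size).
After the same thinning, the share of T and NK cells with a Pdcd4 UMI was 32.0% labelled wt and 30.2% labelled cko (50.8% and 45.9% without thinning). The binomial intervals, 25.3 to 39.4% and 24.0 to 37.0%, overlap. In monocytes and macrophages the thinned share was 4.99% and 4.24%. Free RNA would give 0.956 and 1.11 of the 210 and 164 lymphocyte UMIs.

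The order of the Pdcd4 levels was NK cells, CD8-negative T cells, CD8 T cells and then nonclassical monocytes in both libraries. NK cells and CD8-negative T cells did not differ beyond counting error, and the steps down to CD8 T cells and from there to nonclassical monocytes did. Within the monocyte line, nonclassical monocytes (29.9 and 45.4 CPM) exceeded classical monocytes by log2 ratios of 0.80 (0.12 to 1.44) labelled wt and 1.30 (0.74 to 1.84) labelled cko. Classical monocytes with low levels of interferon-induced genes (below the median of 2.12 UMIs per 10000 for 5 such genes) had 24.0 and 23.6 CPM, and those above it 10.7 and 13.0 CPM.

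Tpm1 codes for a tropomyosin that coats actin filaments. Over all monocytes and macrophages its level was 22.4 CPM labelled wt and 21.5 CPM labelled cko, a log2 ratio of -0.06 (-0.26 to 0.15). The classes differed far more than the libraries. Ly6c2-low C1q macrophages exceeded classical monocytes by log2 ratios of 2.28 (1.81 to 2.78) labelled wt and 1.88 (1.41 to 2.38) labelled cko, from 7.69 and 8.17 CPM in the monocytes to 37.2 and 30.1 CPM in the macrophages.

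In these macrophages Tpm1 was called lower under the cko label, with a log2 ratio of -0.31 (-0.55 to -0.06). The mean of the log2 ratios of the 3 macrophage states, weighted by their UMIs over both libraries, was -0.22, under the limit for a call. It is a mean of ratios and not a ratio of pooled levels. The Vcam1/Ccl8/Folr2 state, where Tpm1 was highest among macrophages, had 51.8 and 37.3 CPM and a ratio of -0.48 (-0.82 to -0.14). The Cd300e/Clec4b1/Pparg state had 29.2 and 31.0 CPM and a ratio of 0.08 (-0.37 to 0.55). The states differed in this ratio by 0.56, with an interval of 0.01 to 1.11 in size that barely clears 0. Classical monocytes above and below the interferon median had ratios of 0.68 (-0.17 to 1.54) and -0.79 (-1.95 to 0.30), each from at most 30 UMIs per library and each holding 0, while their difference was 1.47 (0.17 to 2.76).
Xcr1 or Ccr7 dendritic cells (47.1 and 68.1 CPM) did not differ in Tpm1 from the Vcam1/Ccl8/Folr2 state beyond counting error when labelled wt, and exceeded it when labelled cko.

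**Figure D4:**
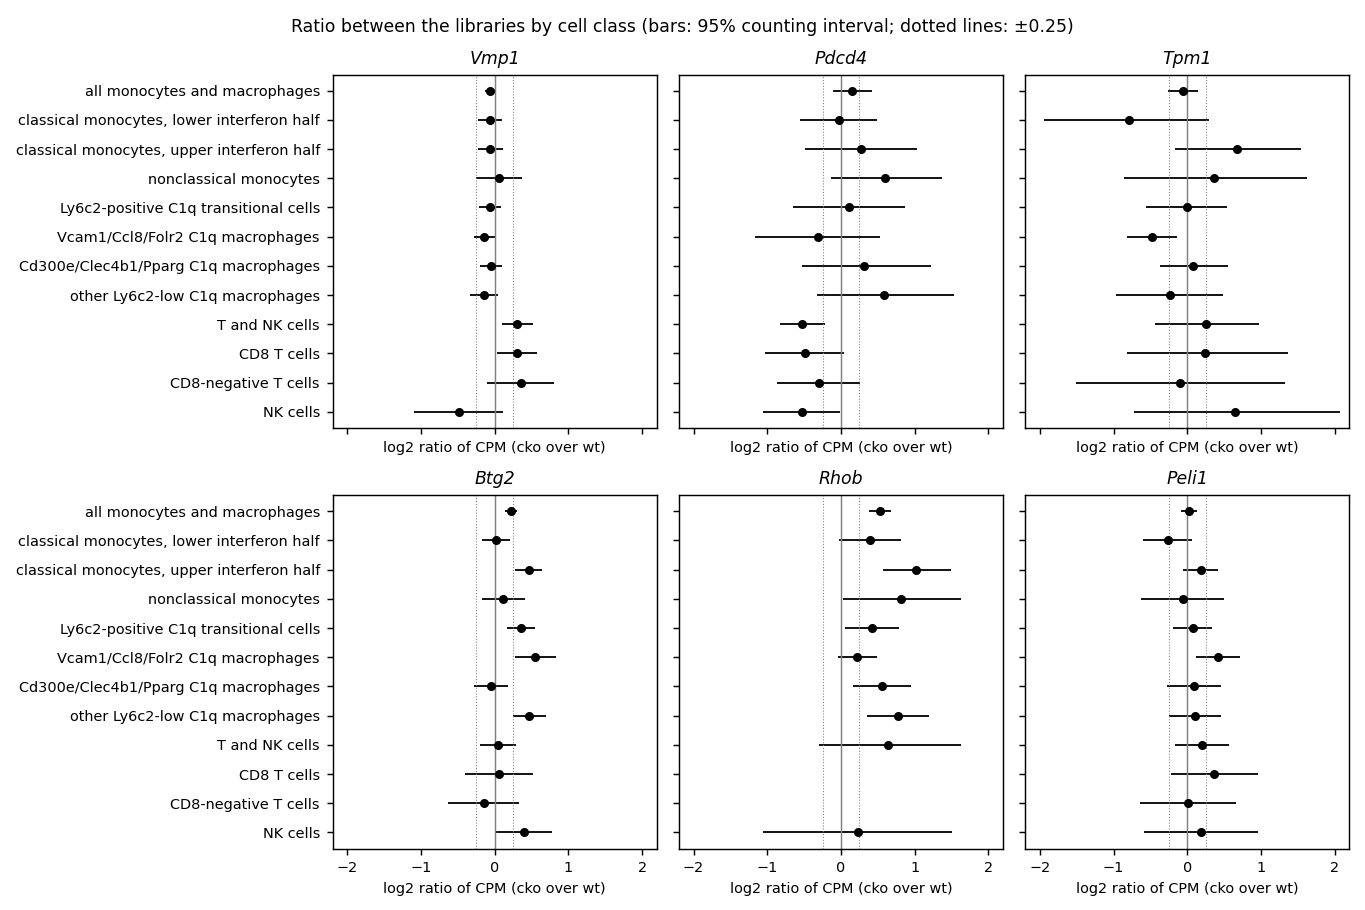
Log2 ratio of CPM (cko over wt) of 6 members by class with 95% counting intervals, where a solid line marks 0 and dotted lines the limits of 0.25, and classes with under 20 UMIs are left blank. Rhob lies above 0 in every monocyte and macrophage class, Vmp1 close to 0 in all of them, and Pdcd4 below 0 in the T and NK classes.

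Rhob is a small GTPase of endosomes that steers receptor traffic and actin, and its gene is induced early by growth factors and stress. Of the 6 members with at least 50 UMIs it had the ratio farthest from 0 in all monocytes and macrophages. The level was 38.3 CPM from 653 UMIs labelled wt and 55.2 CPM from 1029 UMIs labelled cko, a log2 ratio of 0.53 (0.39 to 0.67) or 1.44-fold. Of all genes tested there, 96.2% had a lower ratio.

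Classical monocytes had 27.0 and 43.6 CPM (151 and 224 UMIs), a log2 ratio of 0.69 (0.39 to 1.00). Ly6c2-low C1q macrophages had 50.4 and 64.9 CPM, a log2 ratio of 0.37 (0.18 to 0.56). The class values were all above 0, and the interval held 0 in the Vcam1/Ccl8/Folr2 state alone among the 6 monocyte and macrophage classes. That state, with the highest Rhob, had 63.4 and 74.0 CPM and a ratio of 0.22 (-0.04 to 0.49). Its ratio was lower than that of classical monocytes by 0.47 (0.07 to 0.86 in size).
The others were 0.81 (0.03 to 1.62) in nonclassical monocytes, 0.42 (0.05 to 0.78) in transitional cells, 0.55 (0.17 to 0.95) in the Cd300e/Clec4b1/Pparg state and 0.77 (0.36 to 1.20) in the other macrophages. Keeping only cells low in immediate-early genes, defined below, gave -0.10 in transitional cells and 0.17 in the Cd300e/Clec4b1/Pparg state. Nonclassical monocytes stayed at 0.47 or more and the other macrophages at 0.53 or more under each setting tried. Among classical monocytes the ratio was 1.02 (0.57 to 1.49) above the interferon median and 0.39 (-0.02 to 0.81) below it, a difference of 0.63 (0.03 to 1.23).

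More cells carried the RNA as well. After thinning, 9.03% (7.67 to 10.6%) of monocytes and macrophages labelled wt and 14.0% (12.4 to 15.7%) of those labelled cko had a Rhob UMI, and without thinning 24.8% and 33.7%. In T and NK cells the thinned share was 1.66% and 7.32%, from 3 and 15 cells, and without thinning 7.18% and 11.7%. With 16 and 28 UMIs Rhob was under the minimum there, and its ratio of 0.64 (-0.29 to 1.62) held 0. Free RNA would give 1.33 and 2.69 of those UMIs.

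Btg2 slows cell division and helps to remove poly(A) tails. It is also induced early after stimulation. Over all monocytes and macrophages the level was 133 CPM from 2263 UMIs labelled wt and 155 CPM from 2881 UMIs labelled cko. The log2 ratio of 0.22 (0.14 to 0.30) was above counting error but under the limit for a call. The mean of the log2 ratios of the 6 classes, weighted by their UMIs over both libraries, was 0.29, past that limit. Classical monocytes had 168 and 198 CPM and a ratio of 0.24 (0.11 to 0.37).

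Ly6c2-low C1q macrophages had 95.1 and 120 CPM of Btg2, and the ratio of 0.33 (0.20 to 0.47) was called. The states differed here. In the Vcam1/Ccl8/Folr2 state, where Btg2 was lowest of all 12 classes, the level was 54.9 CPM labelled wt and 80.2 CPM labelled cko, a ratio of 0.55 (0.27 to 0.83). The Cd300e/Clec4b1/Pparg state had 116 and 112 CPM and a ratio of -0.05 (-0.28 to 0.18), and the difference between those states was 0.60 (0.25 to 0.95). The other macrophages had a ratio of 0.47 (0.24 to 0.70), and transitional cells one of 0.35 (0.17 to 0.54). In cells low in immediate-early genes, defined below, the ratio was 0.13 in the Vcam1/Ccl8/Folr2 state and 0.09 in transitional cells, both under the limit for a call.
Interferon level divided classical monocytes in the same direction as for Rhob, with a ratio of 0.46 (0.28 to 0.65) above the median and 0.02 (-0.17 to 0.20) below it, a difference of 0.45 (0.19 to 0.70). In T and NK cells the levels were 181 and 185 CPM, a ratio of 0.04 (-0.21 to 0.28). NK cells alone had 244 and 322 CPM of Btg2, and their ratio of 0.40 (0.02 to 0.78) was called, with 0.34 to 0.48 over the settings tried.

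Other genes that respond within minutes of stimulation, or of handling a tissue, were counted beside Rhob and Btg2. Of the 10 immediate-early genes listed (Fos, Fosb, Jun, Junb, Egr1, Dusp1, Ier2, Ier3, Atf3 and Zfp36), 8 were called higher and 0 lower in all monocytes and macrophages (median log2 ratio 0.38), beside 8.31% and 3.16% of all genes, with Fosb at 0.77, Egr1 at 0.63 and Dusp1 at 0.53. Calls higher were 5 of 10 in classical monocytes (median 0.25), 9 of 10 in Ly6c2-low C1q macrophages (0.57) and 1 of 9 tested in T and NK cells (0.16), beside 5.2%, 9.02% and 5.7% of all genes, and 0 were called lower in each. Their summed level in monocytes and macrophages was 1477 CPM labelled wt and 1892 CPM labelled cko, and over their 6 classes the summed log2 ratio ranged from 0.26 in classical monocytes to 0.59 in nonclassical monocytes. It was 0.40 (0.29 to 0.50) in T and NK cells, with CD8 T cells at 0.80 (0.62 to 0.98), the highest of the 12 classes, and 0.57 and 0.67 in the dendritic cell classes. Class by class these sums went with the member ratios in some classes and not in others. CD8 T cells had a sum of 0.80 and a Btg2 ratio of 0.05. The sum and the Rhob ratio were 0.59 and 0.81 in nonclassical monocytes and 0.57 and 0.55 in the Cd300e/Clec4b1/Pparg state. They were 0.47 and 0.77 in the other macrophages, 0.46 and 0.42 in transitional cells, and 0.43 and 0.22 in the Vcam1/Ccl8/Folr2 state. Classical monocytes had 0.26 and 0.69. With Btg2 the pairs were, in the same order, 0.59 and 0.11, 0.57 and -0.05, 0.47 and 0.47, 0.46 and 0.35, 0.43 and 0.55, and 0.26 and 0.24. None of the 10 was at 0 in these cells. The part of these genes in the Rhob and Btg2 values was not tested.

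Cells were divided at the class median of the summed immediate-early level, a comparison chosen after the data were seen. In Ly6c2-low C1q macrophages at or under the median (307 and 331 cells), Rhob was at 51.8 and 55.4 CPM with a ratio of 0.10 (-0.15 to 0.34), and Btg2 at 61.7 and 59.8 CPM with a ratio of -0.04 (-0.28 to 0.19). In the macrophages over the median (212 and 426 cells), Rhob was at 47.0 and 76.1 CPM with a ratio of 0.69 (0.37 to 1.03). Btg2 there was at 173 and 190 CPM with a ratio of 0.13 (-0.04 to 0.31).
This division uses genes that themselves differ between the libraries, so its values describe the cells in each part and are no test. The macrophage states did not go one way in the cells at or under the median. In the other macrophages Btg2 had a ratio of 0.58 there, and Rhob was at 0.53 or more under each setting tried. In the Vcam1/Ccl8/Folr2 state Btg2 was at 0.13 and Rhob at -0.24, and in the Cd300e/Clec4b1/Pparg state they were at -0.38 and 0.17. In classical monocytes at or under the median, the Rhob ratio was 0.67 (0.13 to 1.22), as large as over all classical monocytes, and that of Btg2 was 0.03 (-0.19 to 0.26). Over all monocytes and macrophages at or under the median, Rhob had a ratio of 0.33 (0.13 to 0.53) and Btg2 one of -0.05 (-0.19 to 0.08). The T and NK cells at or under the median had 14 and 9 Rhob UMIs and a ratio of -0.35 (-1.74 to 0.96), and those over it 2 and 19 UMIs.

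**Figure D5:**
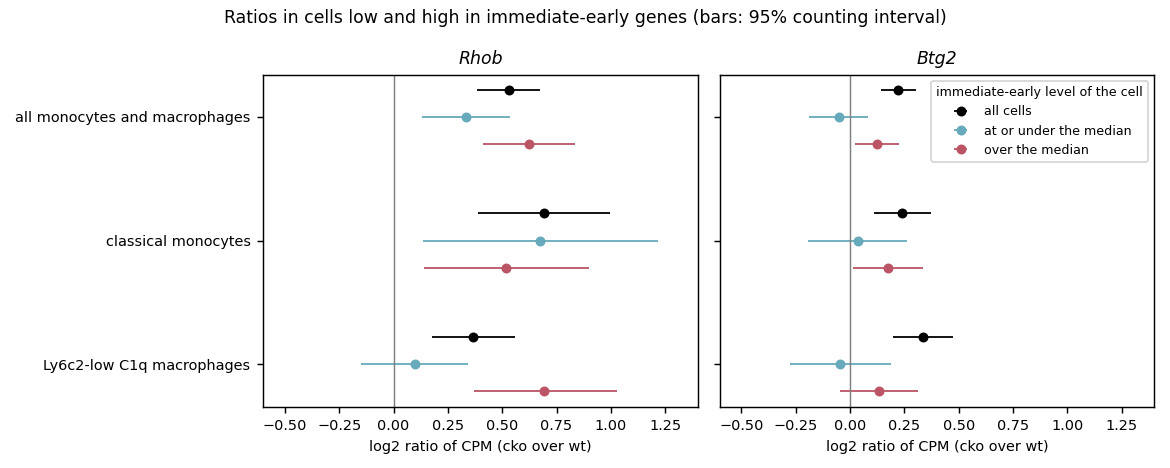
Log2 ratios of Rhob and Btg2 (cko over wt, 95% counting intervals) over all cells of a class in black, in cells at or under the class median of 10 immediate-early genes in teal and in cells over it in red. In the 3 monocyte and macrophage classes drawn, the teal values of Btg2 lie between -0.05 and 0.03, and those of Rhob between 0.10 and 0.67.

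Btg2 is also a target of p53, and 6 other p53 targets were listed beside it. In all monocytes and macrophages 0 of 6 were called, beside 8.31% and 3.16% of all genes called higher and lower, a background at which under 1 call of 6 falls on either side. Their log2 ratios ran from -0.14 to 0.47 (median 0.05), with Trp53inp1 at 0.47 (-0.03 to 0.98) and thus above Btg2. In classical monocytes 0 of 6 were called and the range was -0.21 to 0.69 (median -0.0011), in Ly6c2-low C1q macrophages 0 of 6 with -0.11 to 0.42 (0.06), and in T and NK cells 0 of 4 with -0.48 to 0.09 (-0.11).

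Peli1 is a ubiquitin ligase of Toll-like and interleukin receptor signalling. Its level was 69.0 CPM from 1177 UMIs labelled wt and 70.2 CPM from 1307 UMIs labelled cko in monocytes and macrophages, a log2 ratio of 0.02 (-0.09 to 0.14). Classical monocytes had 86.9 and 86.5 CPM (-0.01, -0.19 to 0.18).

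Ly6c2-low C1q macrophages had less Peli1 than classical monocytes, at 52.6 and 59.8 CPM. Their ratio of 0.18 (-0.01 to 0.38) held 0. In the Vcam1/Ccl8/Folr2 state alone the level was 48.8 and 65.2 CPM and the ratio 0.42 (0.12 to 0.72), which lay above that of classical monocytes by 0.42 (0.08 to 0.77). This Peli1 ratio was 0.14, under the limit for a call, in cells low in immediate-early genes, and 0.92 after thinning to 3000 UMIs. Interferon level went with Peli1 in both libraries: classical monocytes above the median exceeded those below it by log2 ratios of 0.73 (0.46 to 1.01) labelled wt and 1.18 (0.89 to 1.48) labelled cko. No step between neighbouring classes in its order exceeded counting error in either library.

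Spry1, Reck and Jag1 had too few UMIs for a call in any class. Spry1, a feedback inhibitor of receptor tyrosine kinase signalling, had 0 UMIs in 1583 monocytes and macrophages labelled wt and 3 in 1747 labelled cko. A sum of 0 allows up to 0.176 CPM (3 counts) labelled wt. Its UMIs lay mostly in T cells: CD8 T cells had 6 and 11 (9.92 and 13.3 CPM), CD8-negative T cells 4 and 0, and NK cells 0 and 0. The 4 UMIs of CD8-negative T cells came from 1 cell. Reck, a membrane-anchored inhibitor of matrix metalloproteinases, had 0 and 3 UMIs in monocytes and macrophages and 7 and 7 in T and NK cells. Jag1, a Notch ligand, had 4 and 9 UMIs in monocytes and macrophages and 1 and 1 in T and NK cells, and its log2 ratio of 1.04 had an interval from -0.80 to 3.19. The intervals in T and NK cells were -1.40 to 1.36 for Spry1 and -1.91 to 1.57 for Reck, and changes within these bounds were not detectable at this depth.

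Relatives of the members in the same families and pathways were counted beside them. Of 25 relatives (metalloproteinases and their inhibitors, tropomyosins, Sprouty and Spred proteins, Notch ligands and receptors and others), 20 were tested in all monocytes and macrophages, with 0 called higher and 1 lower, beside 8.31% and 3.16% of all genes. The 1 was Mmp14, a membrane metalloproteinase (87.6 and 69.9 CPM, log2 ratio -0.33, -0.43 to -0.22). Rhoc had a ratio of 0.03 (-0.33 to 0.41) and Tpm4 one of 0.06 (0.01 to 0.11), and neither was called. Peli2 (0.63, -0.10 to 1.39) lay farther from 0 than Mmp14 and Notch1 (-0.25, -0.60 to 0.10) nearer, and neither was called. In classical monocytes 0 of 15 were higher and 2 lower (Mmp9 and Mmp14), beside 5.2% and 3.84% of all genes, and Mmp9 was at 32.9 and 3.31 CPM (-3.31, -4.13 to -2.60). Of its 184 UMIs labelled wt, 169 lay in the monocytes below the interferon median, with 62.5 and 2.62 CPM there and 5.19 and 4.05 CPM above it. In Ly6c2-low C1q macrophages 1 of 16 was higher, Mmp9 (34.6 and 42.7 CPM), and 1 lower, Mmp14, beside 9.02% and 3.87% of all genes. T and NK cells had 1 of 11 called higher, Eif4a2, and 1 called lower, Spry2, beside 5.7% and 3.77%.

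A list of 22 other genes described as miR-21 targets was examined in the same way. In all monocytes and macrophages 16 were tested, 4 were called higher and 0 lower, beside 8.31% and 3.16% of all genes, and their median log2 ratio of 0.05 was near the 0.04 of all genes. The 4 were Cdc25a, a cell cycle phosphatase (4.46 and 7.30 CPM, 0.71, 0.30 to 1.14), Yod1, a deubiquitinase (7.62 and 11.2 CPM, 0.56, 0.24 to 0.88), Smad7, an inhibitor of TGF-beta signalling (20.4 and 25.4 CPM, 0.32, 0.12 to 0.52), and Tgfbi, a secreted matrix protein (1797 and 2156 CPM, 0.26, 0.24 to 0.28). Marcks, an actin-binding protein of the cell membrane, was at 319 and 283 CPM (-0.17, -0.23 to -0.12) and was not called.
Of the 16 tested, 6 held an 8mer, and the 4 called were among them, while 0 of 6 with a 7mer at best and 0 of 4 with no match were called. Over all genes tested there, 14.9% of those with an 8mer, 7.92% with a 7mer at best and 8.24% with no match were called higher, so the split of these few genes is a description. Pdcd4 and Peli1, the members with an 8mer that were tested, were not called. In Ly6c2-low C1q macrophages 4 of 14 were called higher and 0 lower (median 0.13), Yod1, Cdc25a, Tgfbi and Bcl2, of which 3 held an 8mer and 1 a 7mer at best, beside 9.02% and 3.87% of all genes. In classical monocytes 0 of 11 were higher and 2 lower, Marcks and Stk40, beside 5.2% and 3.84% of all genes. Among T and NK cells 1 was higher, Tgfbi, and 2 lower, Spry2 and Bcl2, of 11, beside 5.7% and 3.77%. Of the listed targets with an 8mer, 0 of 4 were called in classical monocytes, and 1 of 4 was higher and 1 lower in T and NK cells. The 34 and 69 Tgfbi UMIs of the lymphocytes are fewer than the 62.2 and 95.7 that free RNA would give.

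Genes that make and use microRNAs were listed as well. In all monocytes and macrophages 14 of 15 were tested, with Dgcr8, the partner of Drosha, called higher (3.69 and 5.21 CPM, log2 ratio 0.50, 0.02 to 0.98) and Ddx17, a helicase of the same complex, called lower (36.3 and 30.2 CPM, -0.27, -0.43 to -0.10), beside 8.31% and 3.16% of all genes. Drosha was at 4.51 and 4.56 CPM, Dicer1 at 11.3 and 11.1 CPM and Ago2 at 29.6 and 27.1 CPM, none of them called. The median of the 14 was -0.08. In classical monocytes 0 of 12 were higher and 2 lower, Tarbp2 and Ddx17, beside 5.2% and 3.84% of all genes. In Ly6c2-low C1q macrophages 0 of 14 were higher and 1 lower, Ddx17, beside 9.02% and 3.87%, and in T and NK cells 0 of 7 were called, beside 5.7% and 3.77%.

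Genes with the level pattern most like each member were sought by Pearson's r of log2(CPM + 1) over 24 points, 12 classes in 2 libraries, among 6952 genes. The points share libraries and cell lineages, so r is a description. For Pdcd4 the nearest was B4galnt1 (r = 0.96), for Btg2 it was Cd9 (0.91), for Tpm1 it was Trap1 (0.91), and for Rhob it was Trem2 (0.89), a lipid receptor of macrophages. Next to them stood Vgll4 and Rps27 for Pdcd4, 4833407H14Rik and Pdlim7 for Btg2, Apoo and Paics for Tpm1, and Tmem68 and Adam17 for Rhob. Vmp1 was most like Gapdh (0.85), Dgkz and Slc37a2, and Peli1 most like Akap8l (0.77), Higd1a and Mdm4. Spry1, Reck and Jag1 had too few UMIs for such a pattern to be read.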

How the data were processed

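The authors deposited raw UMI counts per gene and cell for cells already called. Per the labels, Cell Ranger and Seurat were used with mouse build mm10, and their versions and the annotation are not given in the sources used here. A filter of 200 genes or more and 10% mitochondrial UMIs or less took out 4 (wt) and 14 (cko) cells. The automatic doublet threshold of Scrublet marked 7 cells in all, so the highest-scoring 48 and 58 cells, as many as the loading predicts, were removed. Marker UMIs gated the classes: 3 UMIs of Cd3 genes for T cells, 2 of Cd8a and Cd8b1 for CD8 T cells, and 10 UMIs of C1q genes per 10000 for macrophages. Cells with B, plasmacytoid or tumor markers (27 and 38) or with both lymphoid and myeloid markers (19 and 33) were set aside. UMIs were summed per class and library and given as CPM. Intervals are exact (conditional binomial, Poisson, Clopper-Pearson) at 95%, and those of differences between 2 ratios use the normal approximation for log counts. Cells were thinned to 3000 UMIs, which left out 0 cells, for shares. The share of free RNA in lymphocytes was taken as their C1q level over that of the whole library. The ratio, its interval, the call and the thinning were tried on simulated counts with Poisson error only. The gates, doublet removal, free RNA and seed matches were not, and the simulation held no spread between cells or mice. Python 3.11.15, numpy 2.4.6, scipy 1.17.1, pandas 2.3.3, scanpy 1.11.5 and matplotlib 3.10.9 were used.

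The members, lists and gates were chosen with earlier results of these data known. Named genes were all 9 members, at most 3 genes per list and direction farthest from 0 in all monocytes and macrophages, the 3 genes most like each member in level (at least 500 UMIs, classes of at least 20 cells) and Lyz2. Other genes named in the lists were chosen after their values were seen. The values of some listed genes are not reported here.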

Additional observations from a re-analysis of the deposited data

Results flagged for a closer look

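Vmp1 was flagged because its counting intervals lay on opposite sides of 0 in 2 kinds of cells of the same libraries. The log2 ratio (cko over wt) was 0.31 in T and NK cells and -0.065 in all monocytes and macrophages. A test of this difference over animals could not be made, so it was not tested, and NK cells alone had a ratio of -0.49. The mean of the lymphocyte class ratios, weighted by UMIs over both libraries, was 0.09.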

How the results depend on the processing

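Of 70 member ratios recomputed under 10 other settings and 1 chosen after the data were seen, 19 were called, and their sign was kept in 194 of 196 recomputed values. Both exceptions came from keeping only cells low in immediate-early genes, with Btg2 in Ly6c2-low C1q macrophages at -0.045 and Rhob in transitional cells at -0.10. The cause was not tested. Over all alternatives, Rhob ranged from 0.33 to 0.72 in all monocytes and macrophages and from 0.54 to 0.76 in classical monocytes, Tpm1 in Ly6c2-low C1q macrophages from -0.48 to -0.22, and Vmp1 and Pdcd4 in T and NK cells from 0.09 to 0.41 and from -0.55 to -0.33. The number of members called higher in classical monocytes was 2 with a C1q limit of 5 or with gates raised by 1 UMI, with Btg2 at 0.26 and 0.29. The share of all genes called was not computed under those settings, so this count has no background beside it. For Btg2 in all monocytes and macrophages the weighted mean of the class ratios was 0.29. With a log2 limit of 0.5, 0 members were called higher and 0 lower in Ly6c2-low C1q macrophages, and 0 higher in T and NK cells. Under TMM scaling 1 of the 14 other miR-21 targets tested was called lower in Ly6c2-low C1q macrophages, beside 489 of all 9361 genes. The share of calls of all genes that were higher fell from 72.5% to 60.6% in all monocytes and macrophages. It fell from 57.6% to 46.4% in classical monocytes. In Ly6c2-low C1q macrophages it fell from 70.0% to 58.2%, and in T and NK cells from 60.2% to 51.2%. A log2 limit of 0.5 left 353 higher and 108 lower calls of 855 and 325 in all monocytes and macrophages, 170 and 150 of 426 and 314 in classical monocytes, 396 and 160 of 844 and 362 in Ly6c2-low C1q macrophages, and 202 and 145 of 330 and 218 in T and NK cells, where no minimum of UMIs gave 441 and 365. Depth limits Spry1, Reck and Jag1 in every class, and Rhob in lymphocytes. With 1 pooled library per genotype, no alternative speaks to the spread between mice. No paired analysis was possible because each group has 1 library.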

Other observations

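The seed match was also read over all genes tested, a comparison chosen after the data were seen and given as counts without a test. In all monocytes and macrophages, 31 of 208 genes with an 8mer in the longest 3′ UTR (14.9%) were called higher (cko over wt) and 3 (1.44%) were called lower. Genes with a 7mer at best gave 77 of 972 higher (7.92%) and 2.88% lower, and genes with no match 698 of 8473 higher (8.24%) and 3.22% lower. Genes with an 8mer have longer UTRs. Among genes with no match and UTRs of like length (within the quartiles of the genes with an 8mer) 5.82% were called higher and 3.96% lower. Lengths were matched only in part, with a median of 3043.5 bases for the 8mer and 2544 bases at like length. The sets were not matched for UMIs. The median log2 ratios were 0.06 for the 8mer, 0.04 for the 7mer and for no match, and 0.02 for no match at like length.

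Cell classes differed in these counts. In Ly6c2-low C1q macrophages 17.6% of 187 genes with an 8mer were called higher (median log2 ratio 0.10), against 8.95% of 7811 genes with no match and 6.50% at like length. In classical monocytes the shares were 7.19% of 167 genes, 5.29% and 4.29%, and the medians were 0.03 for the 8mer and 0.03 for no match. In T and NK cells they were 8.49% of 106 genes, 5.78% and 5.43%, with 4.72% of the genes with an 8mer called lower, and the median for the 8mer (0.0078) lay below those for no match (0.03) and for no match at like length (0.04). Differences between the classes were not tested.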
